A study of Mus musculus with 2 samples.

Results

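The interleukin-1 family and its receptors were examined in cultured fibroblastic reticular cells (FRCs), the fibroblasts that form the conduit network of lymph nodes. The 10 genes were Il1a, Il1b, Il18, Il33, Il1rn, Il18bp, Il1r1, Il1rl1, Il1rap and Il1r2, taken from a list and matched by symbol to probe sets that the platform annotation assigns to 1 gene. Of these, 8 were measured, among 19751 named genes in all, each by 1 probe set. Il1r1 and Il1rl1 had no probe set of their own in that annotation and were not analysed here. The members were chosen by symbol with the log2 intensities of these same arrays known, so all their levels and differences are descriptions. The series holds 1 group of 2 microarrays, replicate 1 and replicate 2. They were made from RNA of untreated C57BL6/J mice 4 to 6 weeks old, whose lymph node stromal cells had been expanded in αMEM medium containing 10% fetal calf serum over 7 to 10 days. The source is labelled as purified FRCs, how they were purified is not stated, and nothing says that the arrays came from separate animals or cultures, so their spread may be technical.

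Interleukin-1 cytokines are alarm signals of tissue damage and infection. Interleukin-1α and interleukin-1β bind the receptor encoded by Il1r1, which recruits the accessory protein encoded by Il1rap and signals through the adaptor MyD88 to NF-κB and MAP kinases, while the receptor antagonist (Il1rn) and the decoy receptor (Il1r2) block it. Interleukin-33 acts through the ST2 receptor (Il1rl1) with the same accessory protein, and interleukin-18, which has its own receptor pair, is neutralised by the binding protein encoded by Il18bp. Lymph node fibroblasts are known as a source of interleukin-33 in mice, and fibroblasts in general respond to interleukin-1 with cytokines, chemokines and prostaglandin synthesis.

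Il1a and Il1b lie next to each other on mouse chromosome 2 and lay on opposite sides of the background limit on replicate 1, so the 250 bases before each annotated start are shown, from RefSeq for build GRCm38.p6. Both are on the minus strand, at chr2:129309973-129310222 for Il1a and chr2:129371140-129371389 for Il1b. Capitals mark the letters TATAAA of a TATA box (searched in the direction of transcription) and, on either strand, TGANTCA of an AP-1 site and TTNNGNAA of a C/EBP site.
Il1a: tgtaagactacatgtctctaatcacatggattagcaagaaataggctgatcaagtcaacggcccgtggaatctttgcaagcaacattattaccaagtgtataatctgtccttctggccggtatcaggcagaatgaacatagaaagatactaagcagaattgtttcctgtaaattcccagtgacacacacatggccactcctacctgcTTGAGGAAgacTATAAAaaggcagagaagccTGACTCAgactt
Il1b: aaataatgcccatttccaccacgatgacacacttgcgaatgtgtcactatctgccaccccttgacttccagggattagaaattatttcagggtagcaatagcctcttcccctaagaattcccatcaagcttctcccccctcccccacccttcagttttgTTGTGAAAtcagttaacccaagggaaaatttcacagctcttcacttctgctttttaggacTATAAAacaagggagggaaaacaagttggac
In the Il1a window the TATA box began 32 bases before the start, the C/EBP match 43 bases and the AP-1 match 12 bases before it. The Il1b window held a TATA box 31 bases and a C/EBP match 91 bases before the start. No matches overlapped in either window. Of 32851 windows of 250 bases in the RefSeq table, 7.59% held the TATA letters, 6.75% the AP-1 letters and 36.8% the C/EBP letters. Over the 15 annotated starts of the 10 genes, the TATA letters occurred before 3 genes (Il1a, Il1b and Il33), the AP-1 letters before 2 (Il1a and Il1rn) and the C/EBP letters before 7. A gene counts here if any of its starts has a match, and some Il1rn windows overlap. The percentages are per window, so the counts cannot be set directly against them. These matches describe the letters only.

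Levels below are log2 of the deposited linear intensities, with mean ± SD over n = 2 arrays where a mean is given. A background limit was set on each array as the 95th percentile of its 1035 olfactory receptor probe sets, which stand for genes silent in fibroblasts, at 7.15 on replicate 1 and 7.17 on replicate 2. A stricter limit was the 95th percentile of 35 genes restricted to organs such as liver, retina, testis and kidney, and stood at 8.22 and 8.28. Of those 35 genes, 18 themselves exceeded the first limit on each array. With 1 group no test was possible and no p-value is given. Because probes differ in binding, the members were not ranked by level among themselves. Levels were set against the limits and the olfactory receptor probe sets. Marker intensities were also summed by list, and in such sums the probe sets with strong signal weigh most. In bulk RNA, fewer cells with a transcript and less transcript per cell cannot be told apart.

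Of the 8 measured members, 4 lay above the first limit on both arrays (Il33, Il1rn, Il18bp and Il1rap), against 67.3% of all named genes. Il1a lay above it on replicate 1 only, as 2.55% of named genes lay on 1 array. Il1b, Il18 and Il1r2 lay below it on both arrays, as did 30.1% of named genes. Above the stricter limit on both arrays lay only Il1rap, 1 of 8, against 48.4% of named genes.

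**Figure D1:**
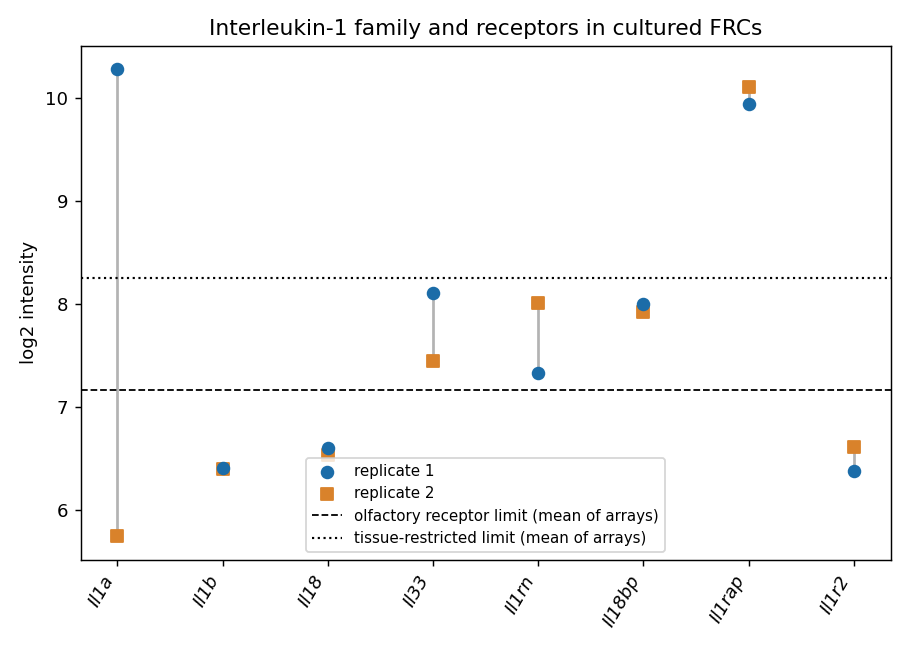
Log2 intensity of the 8 measured members on replicate 1 (circles) and replicate 2 (squares), with lines joining the arrays and the limits drawn as means over the arrays. Il1a spans 10.27 to 5.74, Il1rap lies near 10 on both arrays, and Il1b, Il18 and Il1r2 stay under the lower line.

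Among the agonists, Il1a, whose precursor is active without cleavage and is held in the nucleus and cytoplasm of stromal and epithelial cells, had 10.27 on replicate 1 and 5.74 on replicate 2. The replicate 1 value was higher than every olfactory receptor probe set, whereas on replicate 2 64.1% of these probe sets were at or below it. The arrays thus lay on opposite sides of both limits. The difference, replicate 2 minus replicate 1, was -4.53 on the log2 scale. Since the replicate 2 value lay in the background, the fold is a lower bound, at least 8.58-fold higher on replicate 1 against the first limit and at least 4.00-fold against the stricter one. Of the 13577 genes with a mean level above the mean first limit of 7.16, 4 had a larger difference when all arrays below the first limit were set to it, and 14 with the stricter limit. The value rests on 1 probe set and 1 array per side.

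Il1b, the secreted form made mainly by activated myeloid cells, gave 6.41 and 6.39 on replicates 1 and 2. These values differed by 0.01 on the log2 scale and lay 0.74 and 0.78 under the first limit. The neighbour of Il1a thus stayed in the background on the array on which Il1a was well above it. On the other side of Il1a lies Ckap2l, a gene of the mitotic spindle chosen after its values were seen, with 9.14 on replicate 1 and 8.08 on replicate 2. Ckap2l was thus more than 2-fold higher on replicate 1, as were 0.368% of the 13577 compared genes. Its replicate 2 value lay between the limits.

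Il18, an inducer of interferon-γ in lymphocytes, gave 6.60 and 6.54 on replicates 1 and 2 and was below the first limit on both. Il33, the nuclear alarmin that stimulates ST2-bearing lymphocytes and mast cells, had 8.10 on replicate 1 and 7.44 on replicate 2. It passed the first limit by 0.95 on replicate 1 and by 0.27 on replicate 2 and missed the stricter limit on both. On replicate 1, 99.4% of olfactory receptor probe sets were at or below Il33, and on replicate 2 97.1%.

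The antagonist and the binding protein lay between the limits. Il1rn, the antagonist that occupies the interleukin-1 receptor without signalling, had 7.32 on replicate 1 and 8.003 on replicate 2, and so lay 0.17 above the first limit on replicate 1 and 0.83 above it on replicate 2. It was thus the reverse of Il1a and Il33, with the higher value on replicate 2. Il18bp, the soluble trap for interleukin-18, had 8.0003 and 7.92 on replicates 1 and 2 (7.96 ± 0.05). Its arrays lay close together, while Il18 itself was below the limit.

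On the receptor side, Il1rap, the shared accessory chain of the interleukin-1, interleukin-33 and interleukin-36 receptors, had 9.93 and 10.10 on replicates 1 and 2 (10.02 ± 0.12). Both values lay above every olfactory receptor probe set and at least 1.72 above the stricter limit. Il1r2, the decoy receptor that binds interleukin-1 without signalling, had 6.37 and 6.61 on replicates 1 and 2, both in the background.

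Members that differed between the arrays were few. Of the 8, 5 had a mean level above 7.16 and were compared, and Il1a entered that set through its replicate 1 value alone. Il1a alone, 1 of the 5, differed at least 2-fold, where 1.41% of all 13577 genes differed that much, 0.368% with replicate 1 higher and 1.05% with replicate 2 higher. At 1.5-fold there were 3 (Il1a, Il33 and Il1rn), against 4.77% of genes, 1.91% with replicate 1 higher and 2.87% with replicate 2 higher. Il33 was 1.58-fold higher on replicate 1 (difference -0.66), and 3.66% of genes differed at least as much. Il1rn was 1.60-fold higher on replicate 2 (difference 0.68), and 3.45% of genes differed at least as much. Both Il33 and Il1rn were little beyond 1.5-fold, and Il1rap (0.16) and Il18bp (-0.08) differed less. With arrays below the stricter limit set to it, neither Il33 nor Il1rn kept a difference beyond that of the limits themselves (0.06 for both), because all their values lay under it.

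**Figure D2:**
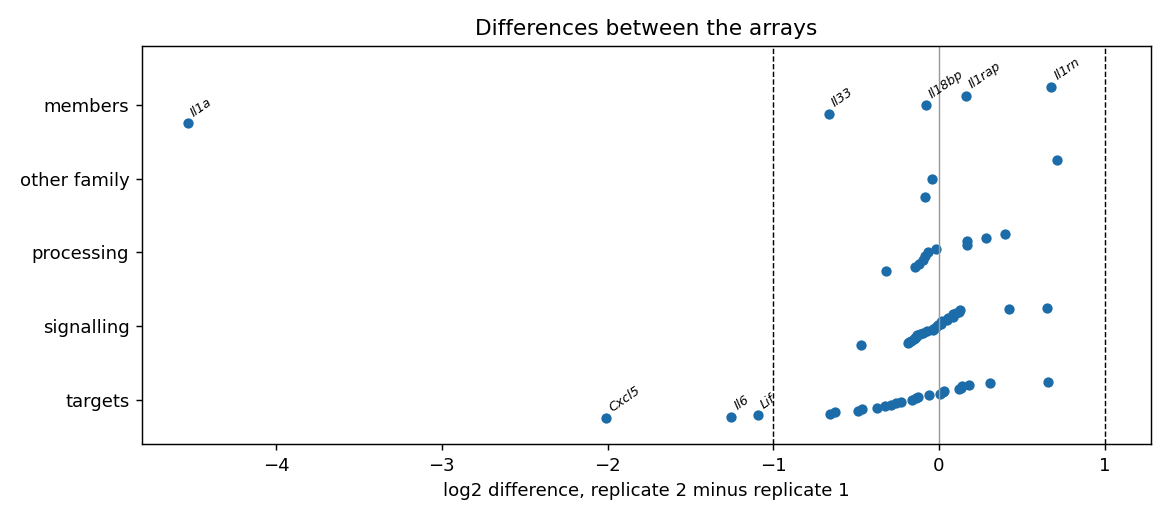
Log2 difference, replicate 2 minus replicate 1, of each gene with a mean level above 7.16, in the members and 4 lists of pathway genes, with dashed lines at 2-fold. Il1a stands at -4.53, apart from the other members between -0.66 and 0.68, and Cxcl5, Il6 and Lif are the other genes beyond a dashed line.

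The 5 named genes nearest to Il1a in the measured signed difference were Ppbp (-2.40), Kcnk10 (-2.19), Fam110c (-2.08), Cxcl5 (-2.01) and Prl8a9 (-1.84). No compared gene had a larger measured difference than Il1a. The 5 are therefore only the next genes with replicate 1 higher, and none came near its -4.53. The replicate 2 values of Il1a and Prl8a9 (6.45) lay in the background, so for these genes the difference is no exact size, and Prl8a9 was at least 2.18-fold higher on replicate 1 against the first limit and at least 1.01-fold against the stricter one. Against the stricter limit Fam110c (at least 4.10-fold) and Kcnk10 (at least 4.05-fold) came close to Il1a (at least 4.00-fold). With 2 arrays, likeness rests on a single difference per gene. Ppbp and Cxcl5 encode chemokines that attract neutrophils. Ppbp had 9.90 on replicate 1 and 7.50 on replicate 2, with the lower value under the stricter limit.

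The rest of the family was mostly in the background. Of 11 other ligand and receptor genes, 3 (27.3%) were above the first limit on each array, against 67.3% of all named genes. Above the stricter limit lay 1 (9.09%), against 48.4%. That gene was Il1rl2, the specific chain of the interleukin-36 receptor, with 9.55 on replicate 1 and 10.26 on replicate 2, 1.64-fold higher on replicate 2. Its ligand genes Il36a, Il36b and Il36g, which the annotation lists as Il1f6, Il1f8 and Il1f9, lay below the first limit, with Il36g at 5.55 and 5.54 on replicates 1 and 2. Il36rn, the antagonist of that receptor (listed as Il1f5), and Il1f10 were below it too. Il18r1, the binding chain for interleukin-18, was in the background at 5.94 and 5.72, and its partner Il18rap was just above the first limit at 7.34 and 7.30. Sigirr, a receptor that dampens interleukin-1 signalling, had 7.63 and 7.54 on replicates 1 and 2.

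Neighbouring genes of the receptor cluster on chromosome 1 lay on different sides of the limits. There the protein-coding genes Il1r2, Il1r1, Il1rl2, Il1rl1, Il18r1 and Il18rap follow each other in RefSeq. Among the 4 measured, Il1rl2 was above the stricter limit, Il18rap between the limits, and Il1r2 and Il18r1 in the background. In the ligand cluster of chromosome 2, Il1f9, Il1f6, Il1f5, Il1f10 and Il1rn follow each other, and of these Il1rn alone passed the first limit.

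Among processing and release genes, Casp1 and 6 sensor genes of inflammasomes lay in the background, while other parts of the machinery gave signal. Of 18 measured, 11 (61.1%) were above the first limit on each array and 9 (50%) above the stricter one, near the 67.3% and 48.4% of all named genes. None differed 2-fold, where 1.41% of genes did. Casp1, the protease that matures interleukin-1β and interleukin-18, had 5.32 and 5.57 on replicates 1 and 2, and Nlrp3, the inflammasome sensor, had 6.43 and 6.42. With them in the background lay the other sensors Nlrp1a, Nlrp1b, Nlrc4, Aim2 and Mefv. Nek7, a kinase that binds Nlrp3 in the inflammasome, passed both limits at 12.49 and 12.42 on replicates 1 and 2. Pycard, the inflammasome adaptor, was between the limits at 7.38 and 7.28, as was Casp4, the sensor of intracellular lipopolysaccharide, at 8.05 and 7.92. Gsdmd, the pore through which the mature cytokines leave cells, passed the stricter limit at 8.32 and 8.60. Capn2, a catalytic subunit of the calpains that cut the interleukin-1α precursor, had 12.99 and 12.97, and Casp8 had 11.98 and 12.15 on replicates 1 and 2.

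The signalling chain below the receptor gave signal throughout. All 29 measured genes of 32 listed passed both limits on both arrays, where 67.3% of all named genes passed the first and 48.4% the stricter one. Irak4, Chuk and Nfkb1 were not analysed here. Myd88, the adaptor, had 10.40 and 10.38 on replicates 1 and 2, the kinase gene Irak1 10.10 and 10.19, and the ubiquitin ligase gene Traf6 9.62 and 9.47. None differed 2-fold, where 1.41% of all 13577 genes did, and the median difference was -0.01, against 0.0046 over all 13577 genes. Of the feedback inhibitors, Irak3, which blocks IRAK signalling, had 9.28 on replicate 1 and 9.93 on replicate 2, the 1 gene here beyond 1.5-fold (1.57-fold higher on replicate 2). Tnfaip3, the deubiquitinase A20 induced by NF-κB, had 9.99 on replicate 1 and 9.52 on replicate 2. Nfkbia, the inhibitor that holds NF-κB in the cytoplasm, had 10.81 and 10.63.

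**Figure D3:**
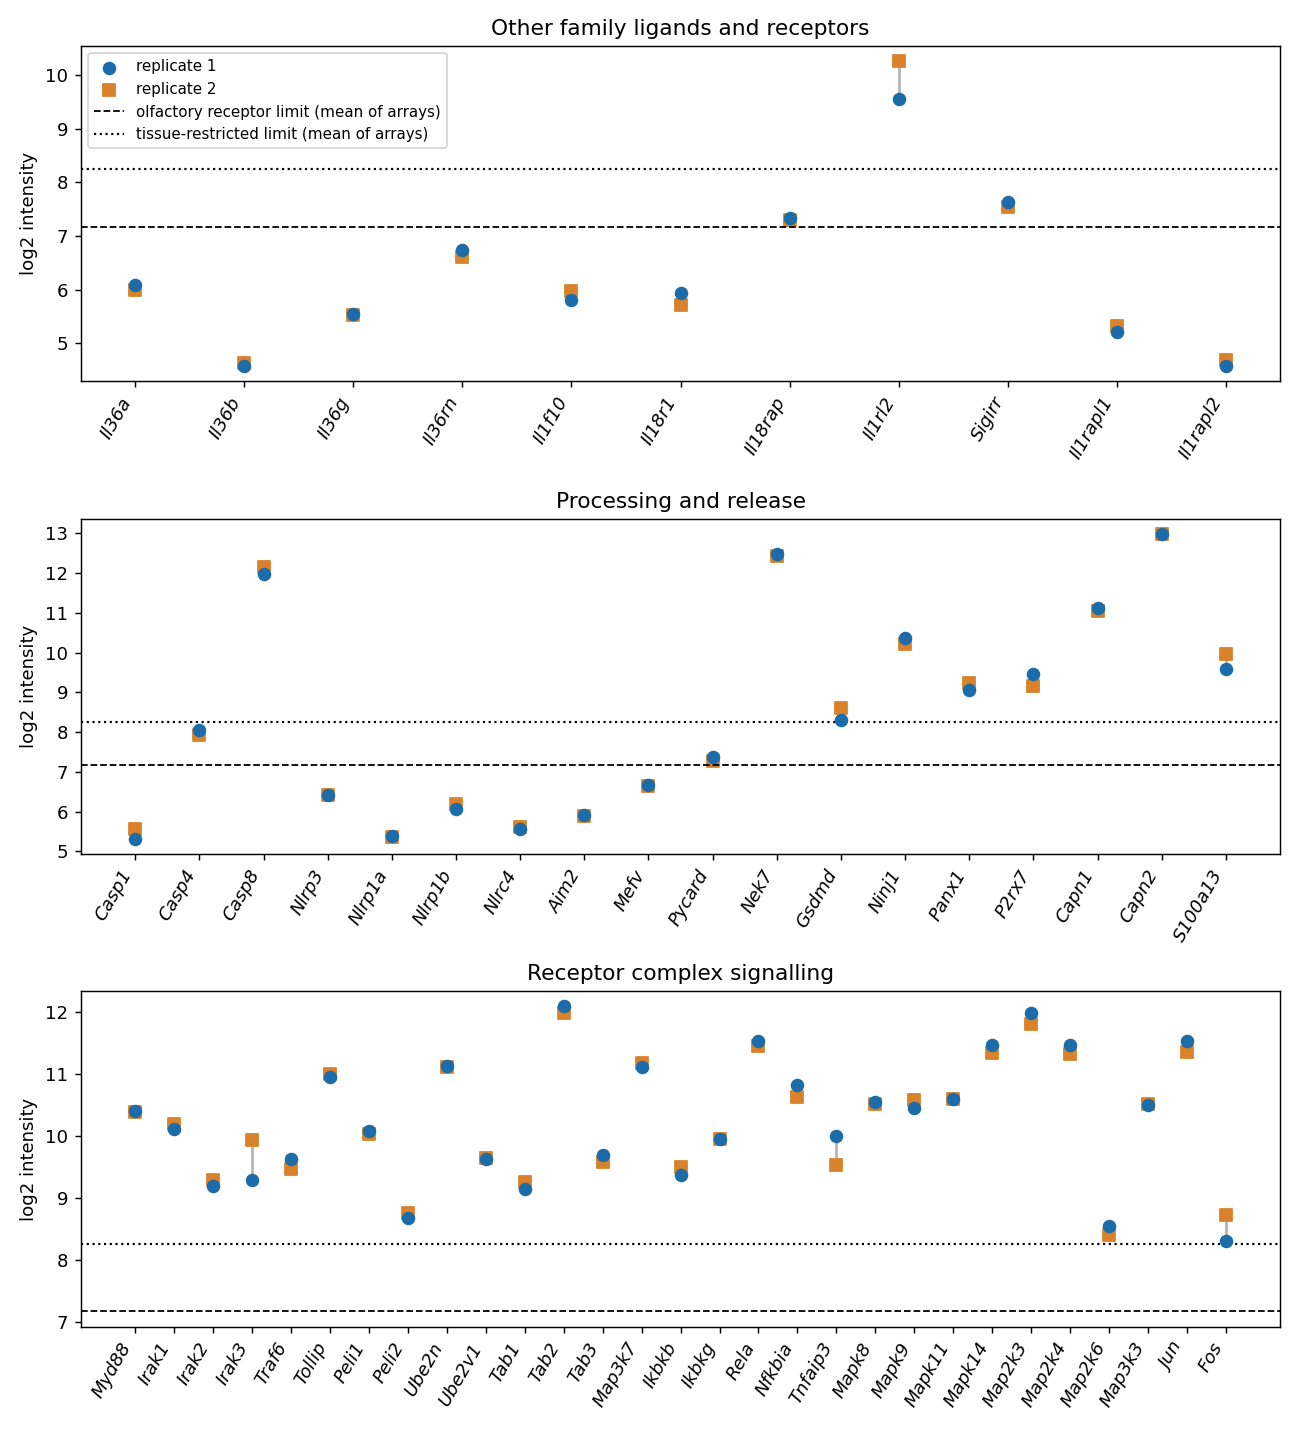
Log2 intensity on replicate 1 (circles) and replicate 2 (squares) of other family genes, processing and release genes, and signalling genes, with the mean limits as lines. Il1rl2 is the 1 other family gene above the dotted line, Casp1 and the inflammasome sensors lie below the dashed line, and every signalling gene lies above both.

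Genes that fibroblasts are known to induce on interleukin-1 were then described. This list of 32, of which 31 were measured, was written with part of these values known. On both arrays, 24 (77.4%) lay above the first limit and 17 (54.8%) above the stricter one, against 67.3% and 48.4% of all named genes. Of the 25 with a mean level above 7.16, 16 were higher on replicate 1, where 48.8% of all genes were. Their median difference was -0.16, against 0.0046 over all genes. With arrays below the stricter limit set to it, 11 of the 25 were higher on replicate 1 and the median was 0.03, against 0.06 for all genes, which is the gap between the limits of the arrays. A gene under that limit on both arrays takes this gap and counts as higher on replicate 2 whatever its values. For such genes this count gives no direction. With only genes whose mean passed the stricter limit, 11 of 18 were higher on replicate 1, with a median of -0.18.

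Those at least 2-fold apart were 3 of the 25 compared, each higher on replicate 1. Of all 13577 genes, 1.41% differed that much, 0.368% with replicate 1 higher. Cxcl5, a neutrophil attractant, had 9.34 on replicate 1 and 7.34 on replicate 2, a 4.02-fold difference that becomes at least 2.09-fold against the stricter limit. Il6, a cytokine of inflammation and B cell differentiation, had 12.08 on replicate 1 and 10.83 on replicate 2 (2.38-fold). Lif, a related cytokine, had 10.66 on replicate 1 and 9.57 on replicate 2 (2.13-fold). Il6 and Lif lay above both limits on both arrays.

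Nfkbiz, the nuclear cofactor needed for part of the interleukin-1 response, had 9.62 on replicate 1 and 8.96 on replicate 2 (1.58-fold), and Zc3h12a, an RNase that degrades cytokine transcripts, was 1.55-fold higher on replicate 1. Ptges, the inducible terminal prostaglandin E synthase, was 1.38-fold higher on replicate 1 (11.29, and 10.82 on replicate 2), and Bdkrb1, a bradykinin receptor, had 8.25 on replicate 1 and 7.76 on replicate 2 (1.40-fold). Cxcl1, Ccl2 and Ptgs2 differed less. Cxcl1, also a neutrophil attractant, had 9.56 and 9.44 on replicates 1 and 2, Ccl2, which attracts monocytes, had 12.13 and 11.90, and Ptgs2, the inducible prostaglandin synthase, had 13.95 and 13.66. In the other direction, 9 of the 25 compared genes were higher on replicate 2. Of these the collagenase gene Mmp13 differed most, with 7.76 on replicate 1 and 8.41 on replicate 2, a 1.58-fold difference. The log2 differences of the rest were smaller: Cxcl2 (0.31), Ccl7 (0.18), Sod2 (0.14), Icam1 (0.13), Vcam1 (0.12), Il11 (0.03), Tnfaip6 (0.03) and Has1 (0.01). The matrix protease gene Mmp3 lay between the limits at 7.72 and 7.39. Lcn2 (7.45 and 7.07), an iron-trapping protein, passed the first limit on replicate 1 only, as did Cxcl3 and Nos2. Saa3, Csf2, Csf3 and Steap4 were in the background on both arrays.

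**Figure D4:**
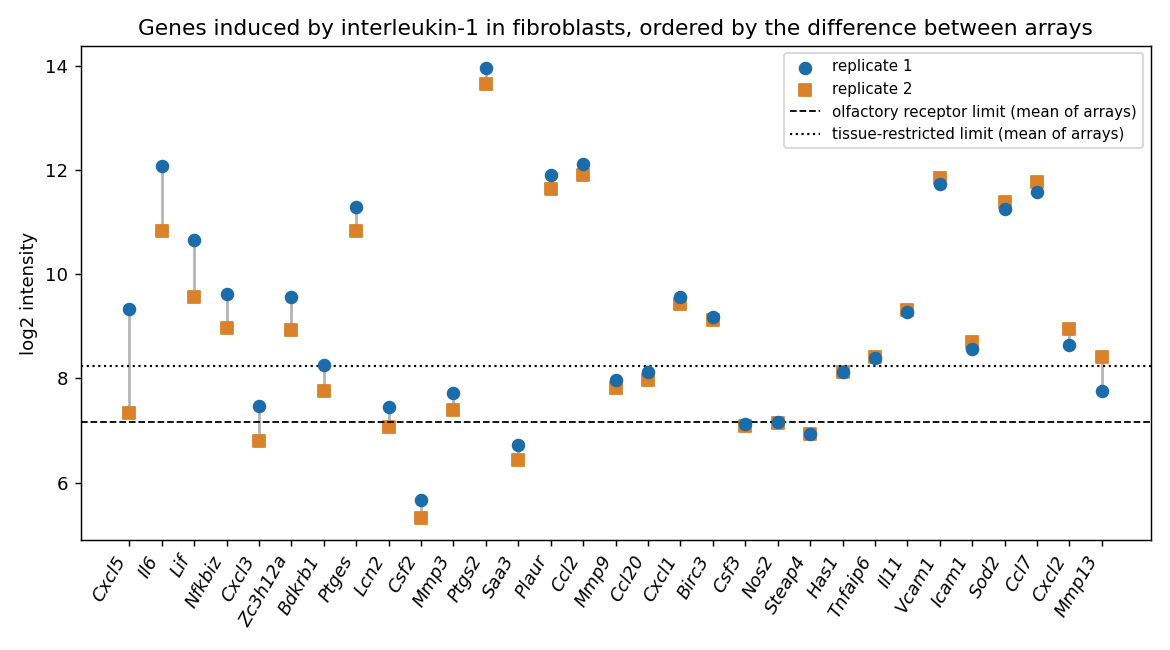
Log2 intensity of 31 genes known to be induced by interleukin-1 in fibroblasts, on replicate 1 (circles) and replicate 2 (squares), ordered by the difference between the arrays, with the mean limits as lines. The widest gaps are those of Cxcl5, Il6 and Lif on the left, all with replicate 1 higher, and Ptgs2, Ccl2 and Cxcl1 sit close together.

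Markers of other cells that make or sense these cytokines were read beside Il1a. The counts below stand against 67.3% of all named genes for the first limit and 48.4% for the stricter one. Shares not far from 67.3%, as in the epithelial (80%) and blood endothelial (55.6%) lists, say little about such cells. All 11 FRC markers passed the first limit and 10 the stricter one. Pdpn was at 12.60 and 12.73 and Pdgfra at 11.84 and 11.94 on replicates 1 and 2. Of the 11, 9 were higher on replicate 2, Col3a1 by 2.38-fold, where 6948 of the 13577 compared genes were. Of 12 macrophage and dendritic cell markers, 4 were above the first limit on each array and 1 above the stricter one (Cd68, which fibroblasts can also express). Ptprc (6.41 and 6.47) and Adgre1 (6.10 and 6.16) were in the background, Csf1r was at 7.66 and 7.54, and the summed intensity of the list was 1964 on replicate 1 and 2092 on replicate 2. Lyz2 ran against Il1a, with 7.12 on replicate 1 and 8.43 on replicate 2. Of 10 epithelial markers, 8 passed the first limit and 2 the stricter one, Krt19 (10.84 and 10.82) and Krt8 (8.44 and 8.50), with Krt5 at 7.34 and 7.42, Krt14 at 7.37 and 7.57, Epcam at 6.65 and 6.64, and sums of 3484 and 3543 on replicates 1 and 2. Neutrophil markers passed in 1 of 7 cases, with S100a8 at 6.27 and 6.31 and sums of 613.2 and 589.1. Mast cell and basophil markers passed in 2 of 8 cases, with sums of 1620 and 1037, most of which was Mcpt8 (10.15 on replicate 1 and 9.05 on replicate 2), while Cpa3 was at 5.27 and 5.36. Of 10 lymphocyte markers, 4 passed, and Gata3 (9.06 and 9.43) alone exceeded the stricter limit, with Cd3e at 7.58 and 7.60 and sums of 1497 and 1660. Blood endothelial markers passed in 5 of 9 cases, with Pecam1 at 7.22 and 7.13 and sums of 1661 and 1777. Among them Egfl7 (8.47 and 8.38) alone exceeded the stricter limit on both arrays. Cdh5 was 1.44-fold higher on replicate 1, and Emcn was 1.70-fold higher on replicate 2. Lymphatic markers passed in 1 of 4 cases, with sums of 567.0 and 479.6. In the lymphatic list Flt4 was lower on replicate 2 (8.41 on replicate 1 and 7.79 on replicate 2) and Lyve1 higher (6.76 on replicate 1 and 7.14 on replicate 2). The mast cell, neutrophil and lymphatic sums were lower on replicate 2, as Il1a was. Most genes of these 3 lists lay under the first limit, so the sums hold much background signal. The mast cell sum includes Mcpt8 (intensity 1134 on replicate 1 and 528.5 on replicate 2). The lymphatic sum includes Flt4 (intensity 339.8 on replicate 1 and 221.9 on replicate 2). Each of these genes was lower on replicate 2 by more than its list's sum was. The macrophage and dendritic cell sum was higher on replicate 2, but it includes Lyz2 (intensity 139.5 on replicate 1 and 343.7 on replicate 2). Such sums do not measure cell numbers, and the part of any of these cells in the Il1a difference was not tested.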

How the data were processed

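Expression was measured on 2 arrays of cultured FRCs. The deposited table gives 1 linear intensity per probe set and array, made by the authors with RMA (background correction, quantile normalisation, probe set summary) per the submitters' processing notes, with no version; RMA compresses differences at low signal. Intensities had medians of 286.0 and 285.7 on replicates 1 and 2. Precision is limited by having 2 arrays. The platform annotation gave 1 gene for 21354 of 24679 probe sets, several for 1275 and no row for 2050, and the last 2 kinds were left unnamed. RefSeq held 21277 of the 21354. Log2 values were averaged per gene (numpy 2.4.6, pandas 2.3.3). Limits were olfactory receptor (1035) and tissue-restricted (35) percentiles. Differences were taken over genes with a mean above 7.16. The counting was checked on simulated data. Members, lists and naming rule were chosen with earlier results of these data known. All members were named, as were pathway genes 2-fold apart, those on the smaller side of a limit where 5 or fewer, and preset pathway genes and markers; other genes were added after their values were seen. Alternatives were other percentiles, probe set choices, single arrays, quantile normalisation, loess, other level filters, floors and 1.5-fold.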

Additional observations from a re-analysis of the deposited data

How the results depend on the processing

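The 4 members above the first limit became 1 with its 99th percentile and 1 with the tissue-restricted limit, and the 3 other family genes became 1 under each. With a single array, 4 to 5 members, 3 other family genes, 11 processing genes, 29 signalling genes and 24 to 27 targets passed. The 1 member 2-fold apart became 0 where the mean had to pass the tissue-restricted limit, because Il1a was left out, and 3 at 1.5-fold. At 1.5-fold the counts were 1 for other family genes, 1 for signalling genes and 6 for targets, against 0, 0 and 3 at 2-fold. Of all 13577 genes, 4.77% differed at least 1.5-fold and 1.41% at least 2-fold. Of 85 recomputed counts, 76 stayed within 1.5 times. Of 568 recomputed differences of single genes, 543 moved by less than the SD between arrays, and none of at least 2-fold changed sign. With 2 arrays that SD follows from the gene's own difference, so a large difference can shift far and still count as unmoved. Il1a did so when set to the stricter limit. Level filters leave a difference as it is, and so does the choice of probe set for genes with 1 probe set. The 543 was thus partly fixed in advance and does not show that the differences are stable. No paired analysis was possible because the series has 1 group. Values under a limit give only a bound.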

Other observations

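Toll-like receptors share the MyD88 branch with interleukin-1 receptors, and interleukin-17 receptors act on many of the same fibroblast genes. Both lists were chosen after the data were seen. Of 14 measured Toll-like receptor and adaptor genes, 8 (57.1%) were above the first limit on each array, against 67.3% of all named genes. Above the stricter limit lay 4 (28.6%), against 48.4%, and these were Tlr3, Tlr4, Tirap and Ticam1. None of the 14 differed 2-fold, where 1.41% of genes did. Tirap, which links MyD88 to Toll-like receptors at the membrane, had 10.69 and 10.54 on replicates 1 and 2, and Ticam1, the adaptor of Tlr3, 9.71 and 9.75. All 6 interleukin-17 receptor and adaptor genes passed the first limit and 3 the stricter one, against the same 67.3% and 48.4%. Il17ra, the shared receptor chain, had 9.98 and 10.30 on replicates 1 and 2, Il17rc, its partner for interleukin-17A, 9.86 and 10.11, and the adaptor gene Traf3ip2 9.38 and 9.30.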
